A study of Mus musculus with 18 samples.

Results

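Haemoglobin and haem genes were followed across 18 libraries of mouse liver metastases. The set held 10 genes, taken by gene symbol from 2 deposited tables: the alpha globins Hba-a1 and Hba-a2, the beta globins Hbb-bs and Hbb-bt, the haem synthesis enzymes Alas2, Alas1, Urod, Cpox and Fech, and the haem-degrading enzyme Hmox1. All 10 were present among 22137 genes in the first table and among 24778 in the second, and all 10 passed the filter on low counts in both. The tumours grew in the livers of wild-type mice after colorectal cancer cells, MC38, were injected into the spleen; MC38 is an established mouse colon carcinoma line. The first table held 5 tumours from mice on a low-fat diet (LFD) and 5 from mice on a high-fat diet (HFD). In the second, all mice were on a high-fat diet and carried tumours labelled shCon (n = 4) or shYap (n = 4), the second being the Yap knockdown. All groups share the MC38 line, the injection route and the tissue. The labels give neither age nor sex, do not say which cells carried the hairpin, and do not tie each library to its own animal, so p-values measure the spread between libraries. The tables were quantified separately, and levels are compared within a table unless stated.

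Haem is made by a chain of enzymes that begins and ends in the mitochondrion. The first and rate-limiting step is catalysed by ALAS1 in most tissues, with the liver as a major site, and by ALAS2 in red cell precursors. Haem joins alpha and beta globin chains to form haemoglobin, and globin messenger RNA persists in young red cells after the nucleus is lost. HMOX1 opens the haem ring, releasing iron, carbon monoxide and biliverdin, and is induced by haem itself and by oxidative stress. In a tumour piece with liver around it, globin transcripts come with blood, whereas ALAS1 and the later enzymes are also expressed by hepatocytes.

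The alpha globin genes lie on chromosome 11, Hba-a1 at chr11:32283511-32284465 and Hba-a2 at chr11:32296489-32297298. The beta globin genes lie on the minus strand of chromosome 7, Hbb-bs at chr7:103826534-103828096 and Hbb-bt at chr7:103812524-103813996 (GRCm38, GENCODE M21). Within each pair the annotated coding sequences differed at 1 base of 429 (alpha) and 1 base of 444 (beta). The stretches of 60 bases around those bases are shown because only reads over that base tell the copies apart within the coding sequence; the differing base is in capitals, and positions count from 1 at the A of the start codon.
Hba-a1: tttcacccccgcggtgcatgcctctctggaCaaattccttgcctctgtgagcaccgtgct
Hba-a2: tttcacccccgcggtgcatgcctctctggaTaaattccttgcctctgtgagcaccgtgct
Hbb-bs: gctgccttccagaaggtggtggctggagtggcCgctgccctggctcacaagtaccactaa
Hbb-bt: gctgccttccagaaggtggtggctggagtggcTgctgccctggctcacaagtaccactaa
The substitution was C381T from Hba-a1 to Hba-a2 and C417T from Hbb-bs to Hbb-bt. Over whole transcripts the copies differ more. For this, 1 annotated transcript of each gene was compared. Of all windows of 50 bases in the Hba-a2 transcript, 86.9% also occurred in that of Hba-a1, and 67.5% the other way round. Of those of Hbb-bt, 58.3% occurred in the Hbb-bs transcript, and 65.8% the other way round. The split between copies is therefore uncertain, and each pair was also tested as a sum.

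The 4 globins moved together across the libraries, as shown further on, so the 250 bases before the RefSeq start sites (GRCm38.p6) were searched on both strands for 4 letter strings found in textbook globin promoter elements: GATAA (the core bound by GATA factors), the CACCC box, the CCAAT box and the string ATATAA, which resembles a TATA box. Promoter entries matched 8 of the 10 genes, not Hmox1 or Fech. All 4 strings occurred in each of the 4 globin windows, against 0.466% of 32851 promoter windows of this length. The strings were chosen as known globin promoter elements, so their presence in globin windows was likely from the outset and is no support. The Hba-a1 and Hba-a2 windows also hold nearly the same sequence. One at a time, GATAA occurred in 22.6% of windows, CACCC in 52.0%, CCAAT in 33.8% and ATATAA in 9.1%. The windows of 1 alpha globin (chr11:32296242-32296491, plus strand), 1 beta globin (chr7:103827929-103828178, minus strand) and Alas2 (chrX:150547167-150547416, plus strand) are printed with the matches in capitals.
Hba-a2: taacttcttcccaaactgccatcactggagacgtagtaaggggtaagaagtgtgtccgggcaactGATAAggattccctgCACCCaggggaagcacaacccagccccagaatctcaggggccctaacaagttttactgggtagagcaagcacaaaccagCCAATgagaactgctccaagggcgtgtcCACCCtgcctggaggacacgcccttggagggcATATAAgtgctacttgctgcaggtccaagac
Hbb-bs: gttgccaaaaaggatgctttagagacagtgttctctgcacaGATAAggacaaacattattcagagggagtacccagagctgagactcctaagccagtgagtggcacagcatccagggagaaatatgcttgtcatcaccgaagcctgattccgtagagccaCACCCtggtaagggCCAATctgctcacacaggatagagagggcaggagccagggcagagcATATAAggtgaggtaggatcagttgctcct
Alas2: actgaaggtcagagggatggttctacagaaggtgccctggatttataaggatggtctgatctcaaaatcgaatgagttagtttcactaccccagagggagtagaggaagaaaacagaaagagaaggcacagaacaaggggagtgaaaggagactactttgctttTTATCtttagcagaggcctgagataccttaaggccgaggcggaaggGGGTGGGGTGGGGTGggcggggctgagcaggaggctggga
In Hba-a2 the GATAA string began 185 bases before the start site, CCAAT 91 bases and ATATAA 31 bases before it; in Hbb-bs the same strings began 209, 76 and 30 bases before it. The Alas2 window held GATAA and CACCC, both as their reverse complements, the 3 CACCC matches standing directly side by side, and neither of the other strings. These are matches of letters, not measured binding sites.

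Of the other genes, Alas1 lies at chr9:106233455-106248654 and overlaps 4930500F10Rik, Cpox at chr16:58670292-58717636 and overlaps Gpr15, Urod at chr4:116989965-116994413, Hmox1 at chr8:75093621-75100589 and Fech on chromosome 18.

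Library totals ran from 17766207 to 18474191 counts in the first table and from 17207214 to 21309950 in the second. Yap1, the knockdown target, was at 78.1, 82.4, 73.8 and 77.4 CPM (counts scaled to a fixed library total) in shCon and at 71.6, 80.0, 81.4 and 70.5 CPM in shYap. The groups overlapped, so Yap1 in whole tumour RNA did not separate the labels, and shYap below means the libraries labelled shYap. The summed level of 10 hepatocyte markers was 10549 to 98426 CPM in LFD and 452 to 4127 CPM in HFD, with no overlap, and 10945 to 36787 CPM in shCon against 13055 to 66268 CPM in shYap. Markers listed for epithelial tumour cells, 5 of 6 being present, summed to 54.2 to 543 CPM in LFD and 187 to 359 CPM in HFD. Krt8 and Krt18 made up most of that sum, with Epcam at no more than 1.62 CPM and Krt19 at no more than 6.60 CPM. In LFD the sum was highest in replicates 5 and 1, at 543 and 399 CPM, as was the hepatocyte marker sum. It is therefore not read here as tumour content. Xist, the transcript of the inactive X chromosome, was at 72.9 to 135 CPM in the 5 LFD libraries and at no more than 0.293 CPM in the 5 HFD libraries. In the shCon and shYap libraries it was at no more than 0.203 CPM. Other marker sums also parted the diets without overlap: fibroblast markers were at 2850 to 5380 CPM in LFD and 6279 to 8358 CPM in HFD, and B cell markers at 64.3 to 186 CPM and 16.5 to 36.5 CPM. All 6 T cell markers were lower in HFD. Diet, the levels of these cell type markers, the Xist level and sex, which the labels do not give, cannot be told apart in the first table.

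All 4 globins were lower in HFD than in LFD, and 1 library set most of the size. Hba-a1, an alpha chain, was at 68.3, 2476, 49.7, 259 and 134 CPM in LFD replicates 1 to 5 and at 33.1, 88.2, 19.998, 29.8 and 45.1 CPM in HFD replicates 1 to 5. Hbb-bs, the main beta chain here, was at 84.7, 2492, 53.6, 284 and 150 CPM in LFD and at 42.3, 120, 24.6, 39.9 and 53.6 CPM in HFD. LFD replicate 2 stood far above every other library, LFD replicate 4 came next, and HFD replicate 2 lay above LFD replicates 1 and 3, so the groups overlapped. Hba-a2 followed the same order at the top, with 2012 CPM in LFD replicate 2 and 18.7 to 92.8 CPM in HFD. Hbb-bt, the minor beta chain, reached 496 CPM in LFD replicate 2, was between 5.45 and 51.1 CPM in the other LFD libraries and between 2.17 and 14.7 CPM in HFD.

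**Figure D1:**
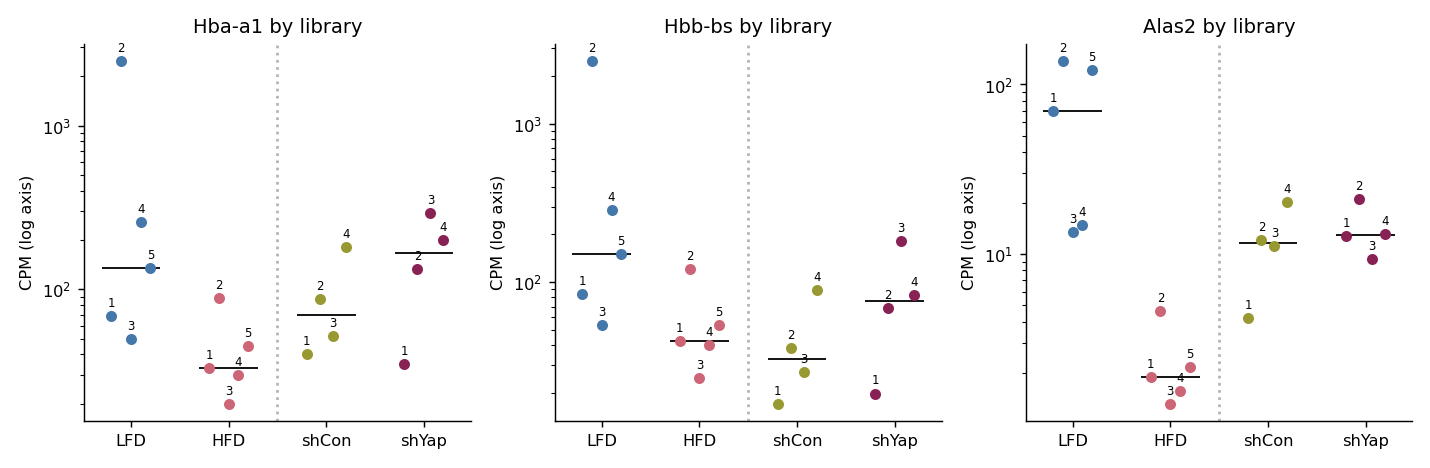
Hba-a1, Hbb-bs and Alas2 in each library, in CPM on a log axis, with the replicate number above each point and the group median as a bar; the dotted line parts the 2 separately quantified tables. LFD replicate 2 is at 2476 CPM for Hba-a1 and 2492 CPM for Hbb-bs, and for Alas2 the 5 LFD libraries lie above the 5 HFD libraries.

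With edgeR's quasi-likelihood test and Benjamini-Hochberg adjustment over 16340 genes, the log2 fold change (HFD minus LFD) was -3.79 ± 1.15 (SE) for Hba-a1 (adjusted p = 0.0254) and -3.45 ± 1.11 for Hbb-bs (adjusted p = 0.0316). For Hba-a2 it was -3.48 ± 1.06 and for Hbb-bt -4.10 ± 1.25, with edgeR adjusted p = 0.0257 and 0.0258. Summed pairs gave -3.64 ± 1.11 for alpha and -3.54 ± 1.13 for beta chains. The mean of Hba-a1 was 13.8-fold higher in LFD, whereas its median was 4.04-fold higher. Without LFD replicate 2 the log2 fold change of Hba-a1 was -1.56, that of Hba-a2 -1.52, that of Hbb-bs -1.35 and that of Hbb-bt -1.78. The edgeR adjusted p without that library was 0.0499 for Hba-a1 and 0.0485 for Hba-a2, and 0.0833 for Hbb-bs and 0.0619 for Hbb-bt, so only the alpha chains still passed the threshold of 0.05. Leaving out HFD replicate 1, 3, 4 or 5 in turn also ended the calls of all 4 globins, with edgeR adjusted p up to 0.0592 for Hba-a1, as did limma voom (adjusted p = 0.0791 for Hba-a1). Of the 10 genes, 8 were lower in HFD, where 21.6% of all genes tested were lower, and 0 were higher, where 19.4% of all genes were; 41.1% of all genes were called in either direction. With HFD replicates 1 and 2 summed, and 3 and 4 summed, 1 of the 10, Alas2, was lower. The share of all genes lower in that fit is not given here.

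Globin counts made up 0.788% of all counts in LFD replicate 2 and between 0.0163% and 0.0870% in the other 4 LFD libraries. In HFD the share was 0.00718% to 0.0343%, in shCon 0.0102% to 0.0430% and in shYap 0.00886% to 0.0802%. Markers of red cell precursors outside the set followed the globins in part. Slc4a1, the band 3 anion exchanger, was at 0.412, 347, 0.490, 34.3 and 5.45 CPM in LFD replicates 1 to 5 and at no more than 1.01 CPM in HFD. Epb42, a protein of the red cell membrane skeleton, was at 29.0 CPM in LFD replicate 2, 3.09 CPM in LFD replicate 4 and 0.732 CPM in LFD replicate 5. Epb42 was listed at 0 in LFD replicates 1 and 3 and was at no more than 0.101 CPM in HFD. Both genes were highest in the libraries with the most globin, whereas LFD replicates 1 and 3 lay near the HFD level. Neither gene passed the filter on low counts in the first table and neither was tested. In bulk tissue fewer cells of a type and less RNA per cell cannot be told apart.

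Of 21 listed genes of the red blood cell membrane and enzymes, 11 were tested in the first table. Of these 11, 6 were lower in HFD, where 21.6% of all genes tested were lower, and 0 were higher. The median log2 fold change of the 11 was -2.10, beside -0.00 over all genes tested. Without LFD replicate 2 the count was 5 and the median -0.68. Car1, a carbonic anhydrase abundant in red cells, was at 3.30, 10.9, 1.31, 3.46 and 5.21 CPM in LFD and at no more than 0.101 CPM in HFD, with 3 HFD libraries listed at 0. Car1 reached at most 2 counts in any HFD library, so it passed the filter only through LFD, where it had to be higher, and its place among the 6 is no support. Sptb and Ermap, also among the 6, reached at most 17 and 20 counts in any HFD library, and their calls are no firm support either. Without LFD replicate 2 Sptb still passed (edgeR adjusted p = 0.0095) and Ermap did not (edgeR adjusted p = 0.111). Car2, another carbonic anhydrase, was at 6.52, 147, 3.11, 17.5 and 8.87 CPM in LFD and at 0.957 to 3.42 CPM in HFD. Its change of -4.33 ± 1.14 (edgeR adjusted p = 0.0134) was -2.31 ± 0.55 without LFD replicate 2 (edgeR adjusted p = 0.0088). The change was -2.10 ± 0.41 for Xk, a blood group transporter (edgeR adjusted p = 0.00309), and -0.85 ± 0.22 for Gypc, glycophorin C (edgeR adjusted p = 0.0115). Xk was highest in LFD replicate 5, at 9.11 CPM, beside 7.62 CPM in LFD replicate 2. Among erythroid transcription factors and the erythropoietin receptor, 4 of 7 tested genes were lower and 0 higher, out of 10 listed. Over all genes tested, 21.6% were lower. The median of the 7 was -1.39, or -0.49 with 4 lower when LFD replicate 2 was left out. In that fit Tfrc, the transferrin receptor and also listed, was higher in HFD (0.59, edgeR adjusted p = 0.0231). Klf1, an activator of the adult beta globin gene, was at 4.19, 18.7, 1.69, 2.57 and 4.80 CPM in LFD and at 0.0978 to 0.498 CPM in HFD, a change of -4.34 ± 0.75 (edgeR adjusted p = 0.00188). Klf1 reached at most 10 counts in any HFD library, so it too passed the filter through LFD, and its call is no support for a fall in HFD. Zfpm1, the GATA1 cofactor FOG1, changed by -1.39 ± 0.25 and Lmo2 by -0.56 ± 0.14, with edgeR adjusted p of 0.00213 and 0.0094. Within LFD, Zfpm1 was highest in replicates 5 and 1, at 61.3 and 53.7 CPM, and lowest in replicate 4, at 24.35 CPM. Nfe2 changed by -3.08 ± 0.81 (edgeR adjusted p = 0.0135), or -1.78 ± 0.43 without LFD replicate 2, in which it was at 15.4 CPM. Nfe2 lay at 0.252 to 1.21 CPM in HFD, at most 24 counts, and also passed the filter through LFD. Its call is no support for a fall in HFD, and the 4 lower genes include Klf1 and Nfe2. Gata1 itself was at 11.1 CPM in LFD replicate 2 and at no more than 1.15 CPM in any other library of the first table, and it was not tested. Of the 10 listed other globins and the alpha chain chaperone, 3 were present and only Cygb, cytoglobin, was tested (0.14 ± 0.53, edgeR adjusted p = 0.852).

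Alas2, the erythroid form of the first enzyme, had the largest difference among the 10 genes in the first table and its groups did not overlap. It was at 69.7, 137, 13.6, 14.9 and 122 CPM in LFD and at 1.89, 4.60, 1.31, 1.56 and 2.15 CPM in HFD. LFD replicates 1 and 5 were high in Alas2 at globin levels far below that of LFD replicate 2, and LFD replicate 4, second in globins, was low. The log2 fold change was -4.95 ± 0.79 (edgeR adjusted p = 0.00139), and it lay between -5.36 and -4.57 when each library was left out in turn. Alas2 and Alas1 were the members without overlap, and both were lower; 14.8% of all genes tested were lower without overlap, and 15.8% were higher without overlap, as 0 members were. The number of globin counts per Alas2 count was 3.44 in LFD replicate 1 and 3.78 in LFD replicate 5, 11.9 in LFD replicate 3, and 54.4 and 55.7 in LFD replicates 2 and 4. In HFD it was 50.6 to 70.3, with both genes at low levels.

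Hepatocyte markers were highest in LFD replicates 1 and 5. Their sum was 56139 CPM in LFD replicate 1 and 98426 CPM in LFD replicate 5, against 10549 CPM in LFD replicate 2, the lowest of the group. Across the 18 libraries, as a description, the residuals of Alas2 from its 4 group means had a Pearson correlation of 0.88 with those of Cpox and of 0.51 with those of Hbb-bs, and without LFD replicate 2 the values were 0.93 and 0.30. These points share a tissue and a quantification, and the part of hepatocyte content in the Alas2 level was not tested. Alas2 (chrX:150547375-150570638) overlaps Apex2 and Mir3620 in the annotation, and whether the counting used strand is not stated in what was available here, so reads of overlapping genes may be shared.

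**Figure D2:**
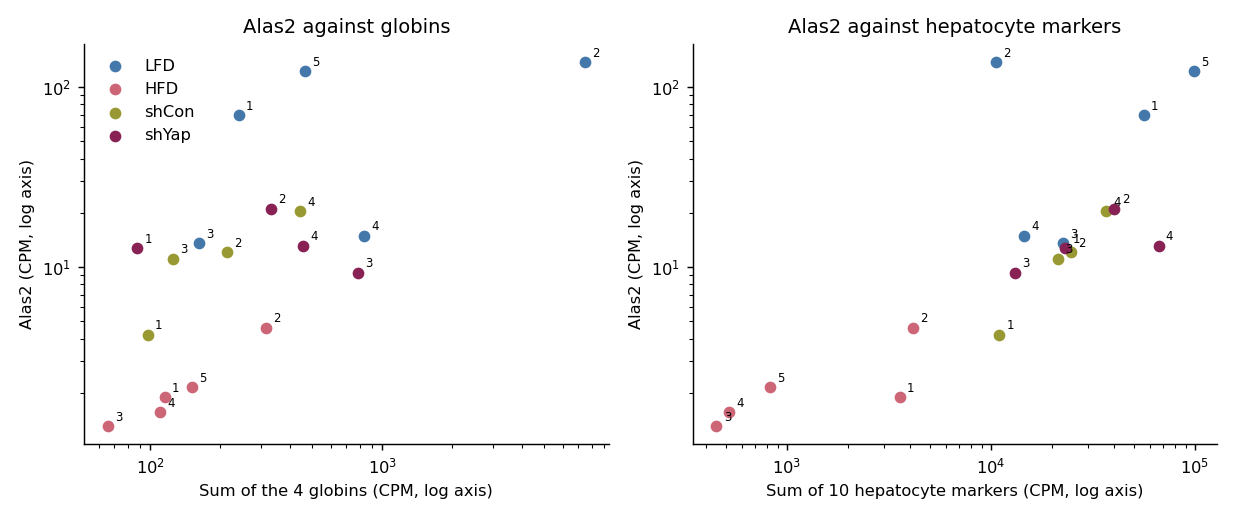
Alas2 in CPM against the sum of the 4 globins (left) and against the sum of 10 hepatocyte markers (right), all on log axes, 1 point a library with its replicate number, coloured by group. LFD replicates 1 and 5 lie high on the left without matching globin levels, and on the right they sit at the top end of the hepatocyte marker sum, at 56139 and 98426 CPM.

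Alas1, the housekeeping first enzyme, was also lower in HFD without overlap of the groups. It was at 146, 49.9, 76.0, 63.4 and 248 CPM in LFD and at 43.4, 47.8, 33.0, 28.9 and 33.2 CPM in HFD. The highest values were again LFD replicates 5 and 1, and LFD replicate 2, the globin-rich library, was the lowest of its group and only just above HFD replicate 2. The log2 fold change was -1.64 ± 0.43 (edgeR adjusted p = 0.0127). Cpox, coproporphyrinogen oxidase, was at 101, 89.8, 47.7, 42.4 and 159 CPM in LFD and at 42.9, 41.8, 35.9, 34.9 and 34.6 CPM in HFD. LFD replicate 4 lay just inside the HFD range, and the change was -1.21 ± 0.33 (edgeR adjusted p = 0.0152).

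Fech, ferrochelatase, which inserts iron into the ring, was at 133, 154, 76.3, 75.6 and 200.7 CPM in LFD and within 74.0 to 79.8 CPM in HFD. LFD replicates 3 and 4 lay within the HFD range, and the change of -0.74 ± 0.25 (edgeR adjusted p = 0.0374) rested on LFD replicates 1, 2 and 5. That call was lost when LFD replicate 1, 2 or 5 or any HFD library was left out, with edgeR adjusted p up to 0.0811 and a log2 fold change between -0.88 and -0.51. Urod, uroporphyrinogen decarboxylase, was at 50.1, 40.4, 31.1, 25.4 and 62.3 CPM in LFD and within 28.3 to 30.1 CPM in HFD, and its change of -0.50 ± 0.21 did not pass the threshold (edgeR adjusted p = 0.0801). Without LFD replicate 4 the change of Urod was -0.64 and passed (edgeR adjusted p = 0.0159). The spread among libraries differed between the diets: the coefficient of variation of Fech was 41.7% in LFD and 2.996% in HFD, and that of Urod 35.3% and 2.52%.

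Over the whole haem synthesis list, 7 of 9 enzymes were lower in HFD and 0 higher, with a median log2 fold change of -0.83. Over all genes tested, 21.6% were lower and 19.4% higher. The 7 include the members Alas2, Alas1, Cpox and Fech, already counted above. Besides the members, Alad, which makes porphobilinogen, changed by -1.31 ± 0.30 (edgeR adjusted p = 0.00656), and Uros, which closes the ring, by -0.51 ± 0.12 (edgeR adjusted p = 0.00917). Alad was highest in LFD replicates 5 and 1, at 104 and 84.4 CPM, and lay between 20.5 and 26.7 CPM in HFD. With the mean log2 level of the 10 hepatocyte markers as a covariate, an alternative chosen after the data had been seen, 0 of the 10 members were lower and 828 genes were called in all. In that fit the value of Alas1 was 0.82 ± 0.49, that of Cpox 0.04 ± 0.57, that of Alas2 -3.96 ± 1.29 and that of Hba-a1 -5.38 ± 1.81. The covariate correlates with the diet groups (r = -0.894 over 10 libraries), so the 2 cannot be told apart by this fit.

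**Figure D3:**
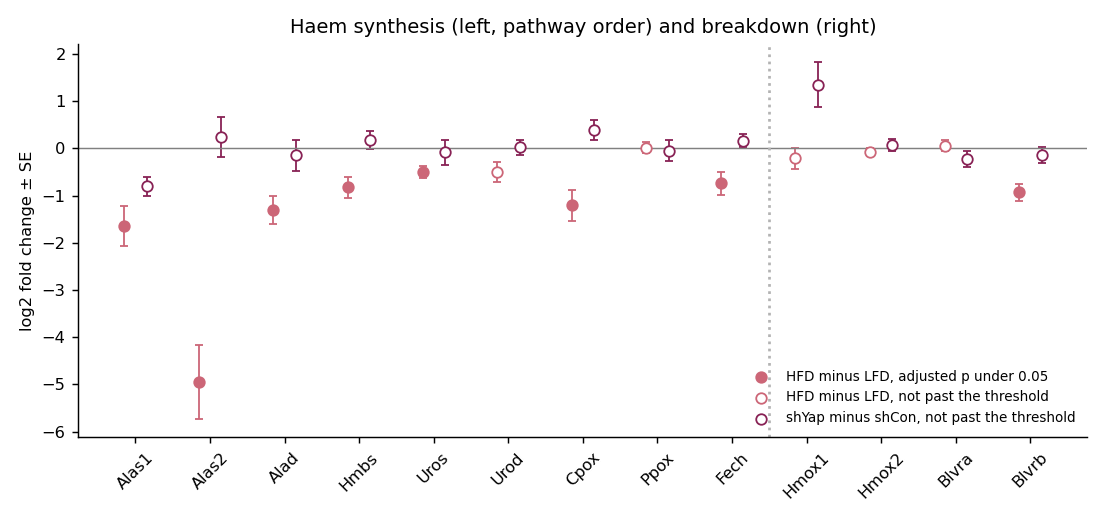
Log2 fold change with its SE for the 9 haem synthesis enzymes in pathway order and the 4 haem breakdown enzymes, for HFD minus LFD and for shYap minus shCon; filled points passed an edgeR adjusted p of 0.05. In the first comparison 7 of 9 synthesis enzymes are filled and below 0, and in the second none is filled.

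Hmox1, the inducible enzyme of haem breakdown, did not pass the threshold between the diets. It was at 62.1, 101, 62.6, 97.0 and 91.5 CPM in LFD and at 82.8, 93.3, 47.0, 55.0 and 79.1 CPM in HFD. The groups overlapped over most of their range, the change was -0.21 ± 0.22 (edgeR adjusted p = 0.454), and the library with the most globin, LFD replicate 2, was also the highest in Hmox1. Of the 4 haem breakdown genes, 1 was lower, where 21.6% of all genes tested were, and 0 were higher. That gene was Blvrb, biliverdin reductase B, at 96.2, 66.0, 52.9, 51.5 and 87.6 CPM in LFD and 33.8 to 39.6 CPM in HFD (-0.93 ± 0.17, edgeR adjusted p = 0.00255). Hmox2, the constitutive haem oxygenase, gave -0.07 ± 0.09 (edgeR adjusted p = 0.531).

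The plasma proteins that bind free haemoglobin and haem come from hepatocytes, and 3 of 5 listed genes of this group were lower in HFD, with 0 higher. Over all genes tested, 21.6% were lower. Hp, haptoglobin, was at 891 to 4020 CPM in LFD and at 88.8 to 627 CPM in HFD (-2.99 ± 0.70, edgeR adjusted p = 0.00799). Hpx, haemopexin, changed by -3.19 ± 0.85 (edgeR adjusted p = 0.0141) and Ambp, the precursor of alpha-1-microglobulin, by -3.79 ± 0.84 (edgeR adjusted p = 0.00619). The receptor gene Cd163, which takes up the haptoglobin-haemoglobin complex into macrophages, gave -0.93 ± 0.49 (edgeR adjusted p = 0.159), with 36.6 CPM in LFD replicate 2 as its highest value. The hepatocyte marker sums above moved with these genes, and their part was not tested. Markers of Kupffer cells and red pulp macrophages, which clear old red cells, summed to 157 to 366 CPM in LFD and 23.7 to 101 CPM in HFD, 5 of the 8 being lower.

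Among 13 genes of haem and precursor transport, 2 were higher and 7 lower in HFD, beside 19.4% higher and 21.6% lower over all genes tested. Slc25a28, mitoferrin 2, which carries iron into mitochondria, changed by 0.59 ± 0.06 (edgeR adjusted p = 0.000205), and Slc48a1, a haem transporter of the lysosome, by 0.41 ± 0.07 (edgeR adjusted p = 0.00125). Slc46a1, a carrier of folate and haem, changed by -1.53 ± 0.27 (edgeR adjusted p = 0.00184) and Abcb10, a mitochondrial carrier, by -0.66 ± 0.11 (edgeR adjusted p = 0.00184). Of 15 regulators of haem synthesis and genes of the NRF2 antioxidant response, 9 were lower and 1, Fth1 (ferritin heavy chain), was higher. The same shares over all genes stand beside these counts. Ppargc1a, a coactivator that raises Alas1 in fasting liver, changed by -3.50 ± 0.47. Nr1d1, a nuclear receptor that binds haem, changed by -2.94 ± 0.48, Osgin1 by -3.24 ± 0.62 and Gclc, which makes glutathione, by -2.35 ± 0.51. The edgeR adjusted p of these genes lay between 0.000564 and 0.00565. Ppargc1a was at 0.252 to 0.805 CPM in HFD, at most 16 counts, so it passed the filter through LFD. Its call is no support for a fall in HFD, although it is among the 9 lower.

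In the second table no member passed the test between shYap and shCon. The edgeR test called 0 of 16571 genes (0% higher and 0% lower), DESeq2 called 409 and limma voom 0, and 1804 genes (10.9%) had an unadjusted p under 0.05 in edgeR. Of the 10 members, 2, Alas1 and Hmox1, had such a p. Hba-a1 was at 40.4, 86.9, 51.6 and 182 CPM in shCon and at 34.9, 134, 293 and 199 CPM in shYap. Hbb-bs was at 17.03, 38.2, 27.1 and 89.1 CPM in shCon and at 19.8, 68.6, 182 and 83.1 CPM in shYap. The groups overlapped, with shYap replicate 3 the highest and shYap replicate 1 among the lowest. The log2 fold change (shYap minus shCon) was 0.87 ± 0.64 for Hba-a1, 0.84 ± 0.65 for Hba-a2, 1.04 ± 0.67 for Hbb-bs and 1.47 ± 0.80 for Hbb-bt, with edgeR adjusted p between 0.571 and 0.713. Without shYap replicate 3 these values were 0.46, 0.37, 0.43 and 0.53.

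Slc4a1 and Epb42 were also highest in shYap replicate 3. Epb42 was at 1.13 CPM there, against no more than 0.252 CPM in the other shYap libraries and 0.278 CPM in shCon. Slc4a1, which was tested in this table, was at 0.203, 3.08, 19.7 and 3.43 CPM in shYap and at 0.200 to 1.67 CPM in shCon (2.95 ± 1.13, edgeR adjusted p = 0.391). Sptb, the beta spectrin of red cells, gave 1.04 ± 0.54 (edgeR adjusted p = 0.552). Alas2 did not follow: it was at 4.21, 12.1, 11.1 and 20.3 CPM in shCon and at 12.7, 21.1, 9.30 and 13.1 CPM in shYap, and shYap replicate 3 was the lowest of its group. The change of Alas2 was 0.24 ± 0.43 (edgeR adjusted p = 0.897). Over the red cell membrane list 0 of 9 tested genes were called, with a median of 0.21, and over the erythroid factor list 0 of 7, with a median of -0.12, beside 0.03 over all genes. In the erythroid factor list the smallest p values belonged to Lmo2 (-0.62 ± 0.19, edgeR adjusted p = 0.293) and Tfrc, the transferrin receptor (0.34 ± 0.28, edgeR adjusted p = 0.73).

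Alas1 and Hmox1 had the smallest p values of the members in the second table. Alas1 was at 170, 125, 143 and 186 CPM in shCon and at 80.1, 110, 61.2 and 105 CPM in shYap. Every shYap library lay below every shCon library, which held for 3.96% of all genes tested; 2.61% were higher without overlap, as 0 members were. The log2 fold change was -0.81 ± 0.21, with an edgeR adjusted p of 0.203 that does not pass the threshold, and DESeq2 gave an adjusted p of 0.0352. Over all alternatives the adjusted p of Alas1 ran from 0.0352 to 0.541 and the log2 fold change from -0.92 to -0.64. The hepatocyte marker sum had a median of 31735 CPM in shYap and 23077 CPM in shCon, and the ranges overlapped. Within shYap, replicate 3 was the lowest both in that sum, at 13055 CPM, and in Alas1. Within shCon, the lowest sum was in replicate 1, at 10945 CPM, where Alas1 was at 170 CPM. T cell markers did part the groups, at 23.1 to 62.5 CPM in shCon and 7.35 to 16.5 CPM in shYap, all 6 with an unadjusted p under 0.05 in edgeR and 0 called. The part of cell composition in the Alas1 level was not tested.

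Hmox1 was at 74.0, 73.0, 64.5 and 128 CPM in shCon and at 102, 153, 472 and 137 CPM in shYap. The groups overlapped through shCon replicate 4 alone, and shYap replicate 3, the library with the most globin in this table, was far above the rest. The log2 fold change was 1.35 ± 0.48 (edgeR adjusted p = 0.358), and without shYap replicate 3 it was 0.64 ± 0.25 (edgeR adjusted p = 0.302). Blvra, biliverdin reductase A, gave -0.23 ± 0.17 (edgeR adjusted p = 0.698). Among regulators and NRF2 targets 0 of 15 were called. Slc7a11, the cystine transporter and an NRF2 target, had the smallest p, at 1.002, 0.620, 1.16 and 3.49 CPM in shCon and 17.9, 9.04, 3.12 and 3.86 CPM in shYap (2.44 ± 0.70, edgeR adjusted p = 0.262). Among the shYap libraries Slc7a11 was lowest in replicate 3, where Hmox1 was highest. Nqo1, another NRF2 target, gave -0.66 ± 0.33 (edgeR adjusted p = 0.519).

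**Figure D4:**
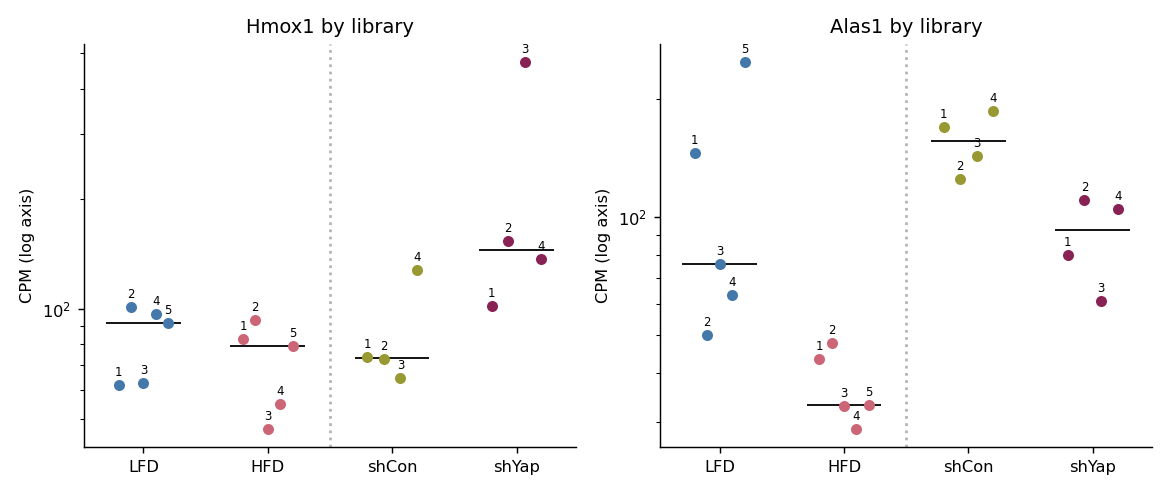
Hmox1 (left) and Alas1 (right) in each library, in CPM on a log axis, with replicate numbers and group medians as bars; the dotted line parts the 2 separately quantified tables. Hmox1 reaches 472 CPM in shYap replicate 3, and for Alas1 all 4 shYap libraries lie below all 4 shCon libraries.

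The remaining synthesis enzymes did not pass the test between shYap and shCon. Cpox was at 28.1, 36.3, 39.7 and 48.6 CPM in shCon and at 50.6, 64.0, 34.6 and 50.2 CPM in shYap (0.38 ± 0.22, edgeR adjusted p = 0.583). Fech was at 95.4, 95.3, 94.9 and 118 CPM in shCon and at 98.8, 125, 127 and 101 CPM in shYap (0.16 ± 0.14, edgeR adjusted p = 0.746). For both genes the groups overlapped. Urod was within 27.2 to 34.7 CPM in shCon and 26.03 to 36.8 CPM in shYap (0.02 ± 0.15, edgeR adjusted p = 0.979). Of the 9 synthesis enzymes 0 were called, with a median of 0.02, and 0 of 4 breakdown, 0 of 13 transport and 0 of 5 scavenger genes were called. By smallest p, Flvcr1, a haem exporter, gave -0.33 ± 0.15 (edgeR adjusted p = 0.488), Slc25a37, mitoferrin 1, 0.17 ± 0.17 (edgeR adjusted p = 0.798), Cd163 1.12 ± 0.47 (edgeR adjusted p = 0.437) and Lrp1, a haemopexin receptor, 0.27 ± 0.19 (edgeR adjusted p = 0.676). Cygb, of the other globins, gave -0.22 ± 0.21 (edgeR adjusted p = 0.774).

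The ratio of alpha to beta globin differed between the tables. Alpha over beta globin, in counts per kilobase of exon, was 1.53, 1.54, 1.81, 1.53 and 1.70 in LFD and 1.52, 1.39, 1.4997, 1.46 and 1.55 in HFD. It was 4.22, 4.16, 3.20 and 3.65 in shCon and 3.27, 3.41, 2.73 and 3.97 in shYap. The lowest ratio of the second table lay above the highest of the first, although HFD, shCon and shYap all came from mice on a high-fat diet. The tables were quantified separately, and the cause of the step between them was not tested. Hba-a1 and Hba-a2 were near parity in every library, the ratio of their counts running from 0.862 in HFD replicate 4 to 1.23 in LFD replicate 2. Hbb-bt made up 6.46% of beta globin counts in shYap replicate 1 and 16.6% in LFD replicate 2. It was 15.2% in LFD replicate 4, 15.3% in shYap replicate 3 and 8.09% to 12.9% in HFD. In shCon the library with the most globin, replicate 4, had the lowest share of its group, at 9.17%. The split between the copies is uncertain, as given above.

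**Figure D5:**
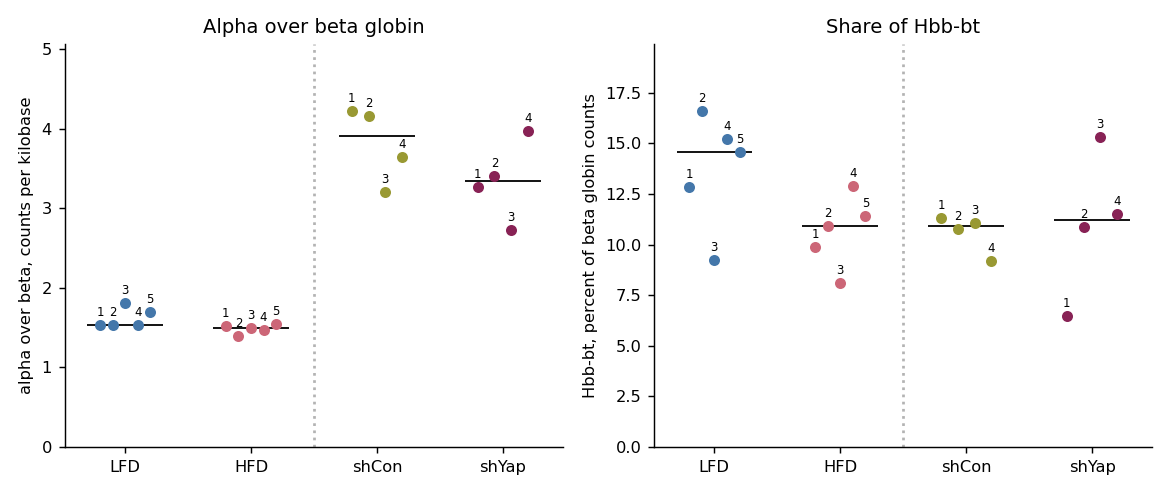
Ratio of alpha to beta globin counts per kilobase (left) and share of Hbb-bt in beta globin counts in percent (right), by library with replicate numbers and group medians as bars; the dotted line parts the 2 separately quantified tables. The ratio lies between 1.39 and 1.81 in the first table and between 2.73 and 4.22 in the second.

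Levels between genes were compared as median CPM per kilobase of exon. The length was the union of all annotated exons, from 667 bases for Hba-a2 to 13838 for Fech, so a long annotation lowers a gene's place. Before division by length, the LFD medians were 133 CPM for Fech, 76.0 CPM for Alas1 and 69.7 CPM for Alas2, the reverse of their order below. In LFD the order was Hba-a2 (229), Hbb-bs (195), Hba-a1 (165), Hmox1 (52.3), Hbb-bt (36.5), Alas2 (29.0), Urod (15.6), Cpox (13.5), Alas1 (12.3) and Fech (9.65). Neighbours in that order overlapped in their library ranges except Hba-a1 and Hmox1. In HFD Hbb-bs (55.0), Hba-a2 (52.8), Hmox1 (45.2) and Hba-a1 (40.8) overlapped at the top, and Alas2 (0.788) lay apart at the bottom, below Alas1 (5.38). Alas1 stood higher in the order in the second table: in shCon it was at a median of 25.3 per kilobase, apart from Hmox1 (42.0) above it and Urod (11.5) below it. In shYap Alas1 was at 14.99 per kilobase, still apart from Hmox1 (82.8) and overlapping Hbb-bt (13.7).

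The patterns most like 3 of the members were ranked over 12041 genes by the Pearson correlation of log2 CPM residuals from the 4 group means, over 18 libraries. The 4 globins were nearest one another, with 0.997 between Hba-a1 and Hba-a2 and 0.995 between Hba-a1 and Hbb-bs. The copies within a pair share most of their bases, as given above, so their counts are not independent measures. Outside the set, Hbb-bs was nearest Cd24a (0.951), Smoc2 (0.896), Fez2 (0.881), Ccl6 (0.871) and Jade2 (0.869), and without LFD replicate 2 these values were 0.912, 0.893, 0.783, 0.760 and 0.726. Among the genes nearest Hmox1 were Caprin1 (0.899), Cnksr3 (0.899), Tsc22d3 (0.894) and Scaper (0.887). Hmox1 and Hbb-bs had 0.684, and 0.826 without LFD replicate 2. Alas1 was nearest Slc25a16 (0.966), Esd (0.960), Gm4952 (0.959), Rufy3 (0.958) and Cpped1 (0.957). The libraries share a tissue and, within each table, a quantification, so these values describe likeness among 18 points and carry no test.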

How the data were processed

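Gene expression in 18 libraries of liver metastases was analysed from 2 deposited tables of estimated counts per gene, which the authors made with Partek's expectation-maximisation quantification, per the labels and file headers. The submitters' processing notes name STAR 2.7.3a, Partek, DESeq2, GRCm38 and mm10, without role or order; annotation, strand setting and read length are not given in the sources used here. Estimated counts were rounded for testing. Genes were filtered with filterByExpr, scaled with TMM factors and tested with edgeR 4.0.16 (quasi-likelihood F test, robust, R 4.3.3), with Benjamini-Hochberg adjustment over all genes tested and a threshold of 0.05. Each table was fitted alone: HFD against LFD (5 and 5 libraries) and shYap against shCon (4 and 4). SE is the absolute log2 fold change over the square root of F. CPM uses TMM-scaled totals; per-kilobase levels divide by the exon union of GENCODE M21. Alternatives were DESeq2 1.42.0, limma 3.58.1 voom, other scaling factors, totals without globins and Alas2, other filters, summed paralogs, a replicate block, each library left out, summed HFD pairs, a stricter threshold and, added after the data had been seen, a hepatocyte covariate. The fits were tested on simulated data. Members, lists and alternatives were chosen with earlier results of these data known. The text names all members and, from each list, up to 4 genes with the smallest p between the diets and up to 2 between shYap and shCon. Gata1, Fth1, Xist, Yap1, Slc4a1, Epb42, Epcam, Krt8, Krt18 and Krt19 values were chosen after they were seen. So were the Tfrc, Sptb and Ermap values between the diets and the library values of listed genes. Cell type marker lists were summed per library. Some listed genes are not reported here.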

Additional observations from a re-analysis of the deposited data

Results flagged for a closer look

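In 9 of 44 group values tested, the highest library stood apart from its group by Dixon's criterion, applied to unlogged values. Chance meets it in about 1 of 20 groups only where values are normally distributed, which unlogged CPM need not be. The 9 of 44 is therefore not read as an excess over chance. In LFD replicate 2 this held for Hba-a1 (2476 CPM), Hba-a2 (2012 CPM), Hbb-bs (2492 CPM), Hbb-bt (496 CPM) and the globin share of counts (0.788%); these 5 values come from 1 library and are not independent. In HFD replicate 2 it held for Alas2 (4.60 CPM, against 1.31 to 2.15 CPM in the other HFD libraries). In shCon replicate 4 it held for Hmox1 (128 CPM, against 64.5 to 74.0 CPM) and Fech (118 CPM, against 94.9 to 95.4 CPM). In shYap replicate 3 it held for Hmox1 (472 CPM, against 102 to 153 CPM in the other shYap libraries).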

How the results depend on the processing

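Between the diets, 157 of 207 values of single members under an alternative kept their direction and side of the threshold, 45 no longer passed, 1 newly passed and 4 changed sign. The count of members lower in HFD, 8 in the main test, was 3 with limma voom, 1 with the closest HFD libraries summed (1 with 2, 3 with 4), 1 at an adjusted p under 0.01 and 0 with the hepatocyte covariate. Leaving out 1 library gave 3 to 9 members lower. The share of all genes lower in each of these fits is not given here, so the changes in count are not read as results about the members. Genes called, 6710 in the main test, were 4233 with summed HFD pairs and 828 with the covariate, which reversed Alas1 (0.82), Hmox1 (0.15), Cpox (0.044) and Urod (0.24). With upper quartile factors 3700 genes were higher and 2999 lower, against 3178 and 3532. DESeq2 gave Hba-a1 no adjusted p.

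Between shYap and shCon, genes called were 0 in the main test, 409 with DESeq2 (1 member, Alas1, lower), 2 with the covariate and 0 to 94 with 1 library left out, the 94 without shCon replicate 4. With 1 library left out Alas2 ran from -0.046 to 0.62, below 0 without shCon replicate 1 or shYap replicate 2. Urod turned to -0.0069 with upper quartile factors and -0.053 with the covariate. With 1 library left out it ran from -0.074 to 0.11, below 0 without shCon replicate 1, shYap replicate 2 or shYap replicate 4. The causes were not tested.

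Same-numbered libraries did not deviate together: the correlations of their deviations were 0.315, -0.5, 0.104, 0.304 and -0.272 in the first table and 0.00572, -0.052, 0.182 and 0.178 in the second. With the replicate number as a block, 4929 genes were called in the first table, 7 members being lower (Fech was lost), and 0 genes in the second. The precision is limited by 4 or 5 libraries a group.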
